A study of Mus musculus with 55 samples.

Results

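The Myc network was described here by the pre-mRNA of 10 genes, Myc, Mycn, Mycl, Max, Mga, Mnt, Mxi1, Mxd3, Mxd4 and Mlx, taken by symbol from the deposited tables. All 10 were among the 9911 genes listed for CCNA-GFP cells and among the 10237 genes listed for CTCF-AID cells. Both lines derive from E14Tg2a mouse ES cells of strain 129/Ola, grown in serum and LIF: CCNA-GFP cells carry a cyclin A-GFP reporter of the cell cycle, and CTCF-AID cells, a single clone, carry an auxin-inducible degron on CTCF, the insulator protein whose binding to mitotic chromosomes the study examined. Mitotic cells of every group had received 10 µM RO-3306, a CDK1 inhibitor, for 4 h and then 50 ng/ml nocodazole for 4 h, were collected by shake-off and were released for the indicated time. In the +IAA arm, 0.5 mM IAA (auxin) was added for the last 2 h of nocodazole and kept during release, and asynchronous cells of this arm received IAA for 4 h without nocodazole, whereas the −IAA arm carried the same degron without auxin. CCNA-GFP cells gave 19 libraries: 3 of mitotic cells, 3 of asynchronous cells, 2 at each of 20, 30, 40, 60, 90 and 120 min, and 1 at 50 min, which therefore carries no error and no test. Each CTCF-AID arm gave 18 libraries: 3 mitotic, 3 asynchronous and 2 at each of 20, 40, 50, 60, 90 and 120 min.

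MYC, MYCN and MYCL are basic helix-loop-helix leucine zipper transcription factors that bind DNA as heterodimers with MAX, mostly at the E-box CACGTG, and activate genes of growth and metabolism. MXD3, MXD4, MXI1 and MNT compete for MAX and recruit SIN3-histone deacetylase corepressors, MGA brings MAX into a Polycomb complex (PRC1.6), and MLX is a MAX-like partner of MNT, of some MXD proteins and of the glucose-responsive Mondo factors. In ES cells Myc and Mycn act together in self-renewal, and Myc transcripts and proteins turn over quickly. Pre-mRNA still contains introns and is short lived, so that its level follows recent transcription.

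Promoter sequence was available for 9 of the 10 genes, as windows from 250 bases before to 50 after each RefSeq start (GRCm38.p6), and is shown here for the genes that hold the E-box or an E2F-type element. The E-box CACGTG, its own reverse complement, stood in the window of 4 genes, Max, Mnt, Mlx and Mxd4, against 7.15% of all 32851 windows and 10.7% of those of genes listed in the tables. TTTGGCGC, an E2F-type element searched on both strands, occurred in 1 gene, Mycn, at 2 places, against 0.514% of all windows and 1.01% of those of listed genes. Neither element was found in the windows of Mycl, Mga, Mxd3 and Mxi1, the last with 3 windows. The stretches below read 5′ to 3′ on the strand of the gene, with the E-box in capitals for the first 4 genes and the E2F-type element in capitals for Mycn.
Max, chr12:76962246-76962348, minus strand, from position −100 to 3: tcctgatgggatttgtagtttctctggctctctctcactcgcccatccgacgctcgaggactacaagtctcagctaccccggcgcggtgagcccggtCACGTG
Mnt, chr11:74830774-74830833, plus strand: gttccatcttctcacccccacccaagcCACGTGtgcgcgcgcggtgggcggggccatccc
Mlx, chr11:101087223-101087276, plus strand: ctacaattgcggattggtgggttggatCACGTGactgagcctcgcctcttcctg
Mxd4, chr5:34187897-34187956, minus strand: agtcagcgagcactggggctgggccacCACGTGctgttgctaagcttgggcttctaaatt
Mycn, chr12:12941915-12942086, minus strand: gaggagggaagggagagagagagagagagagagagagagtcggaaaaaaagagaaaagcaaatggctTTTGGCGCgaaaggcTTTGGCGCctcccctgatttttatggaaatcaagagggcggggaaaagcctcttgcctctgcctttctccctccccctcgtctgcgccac
The E-box of Max began at −3 from its start, that of Mlx at −40, that of Mnt at −123 and that of Mxd4 at −219, and the E2F-type elements of Mycn began at −183 and −168. Binding at these elements was not measured in the values used here.

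In Gencode vM21 on GRCm38, Myc is the plus-strand gene chr15:61985391-61990374 and Mycn the minus-strand gene chr12:12936093-12941914. Mycl lies at chr4:122995652-123002485 and Max at chr12:76937269-76962201. The members range from Mxd3, of 4656 bases, to Mga, of 72354 bases at chr2:119897228-119969581. Introns make up 45.5% of Myc, 43.4% of Mycn, 40.9% of Mycl, 49.1% of Mxd3 and 38.7% of Mxd4, but 85.6% of Max and 89.6% of Mxi1. The pre-mRNA isoform thus shares much more of its sequence with mRNA in the MYC genes, Mxd3 and Mxd4 than in Max or Mxi1.

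The values are TPM, transcript levels scaled to length and to the whole library, and the sequencing depth behind them is unknown. Their sum over the listed genes, which moves with the amount of pre-mRNA relative to all RNA, ran from 13747 to 42576 in CCNA-GFP and from 17702 to 43370 in CTCF-AID, and was highest near 50 to 90 min. Of 10 markers of ES cells, 9 were listed in either table, with a summed level between 75.7 and 147 TPM in the asynchronous libraries. None of 6 primitive endoderm markers was listed, and the listed markers of mesoderm, neural and trophectoderm cells summed to at most 5.80 TPM per list in these libraries, while Fn1 alone, of the fibroblast list, reached a mean of 7.44 TPM. Auxin removes the CTCF protein, so that Ctcf pre-mRNA, at 5.74–10.3 TPM without and 5.98–11.8 TPM with IAA, does not check the depletion. Tests used limma on log2(TPM + 1), a scale that understates the fold change of low genes, with Benjamini-Hochberg adjusted p-values (adjusted p) over all genes of a table, called at 0.05 for stages. The libraries of a stage are described as independent biological replicates. A gene could enter the tables through its level in asynchronous or released cells but not through that in mitosis, and Mycl and Mxd4 were below 0.5 TPM in every mitotic and every asynchronous library of CCNA-GFP and of both CTCF-AID arms. Both were thus listed in either table through their released libraries and had to be higher there, so that their rises and calls below are a description.

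On the log2(TPM + 1) scale the MYC genes were the members furthest above mitosis at 40 min in CCNA-GFP cells. By 40 min after release Myc, Mycn and Mycl were 1.69, 1.51 and 1.06 higher than in mitosis on the log2 scale, while Max was 0.50 higher and Mga, at −0.02, did not pass the test. Of the 10 genes, 8 were called higher at 40 min, where 49.3% of all genes were, and all 10 were called at 60 min, where 88.3% were. The median change over the network was 0.60 at 40 min and 1.32 at 60 min, beside 0.26 and 0.79 over all genes. As a ratio of mean TPM at 40 min to mitosis, Mycl stood at 7.26, Myc at 5.90, Mxd4 at 3.76 and Mycn at 3.32, so that Mycn was behind Mxd4 without the pseudocount.

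Myc, the founding member of the family, was at 0.627, 0.731 and 0.984 TPM in the mitotic libraries and at 1.64 and 0.760 TPM after 20 min. It then measured 2.38 and 1.36 TPM at 30 min, 5.10 and 4.12 TPM at 40 min, 7.11 TPM in the single library of 50 min and 7.38 and 5.69 TPM at 60 min. From 30 min on, each released library was above each mitotic one, and the levels of 40 min and later exceeded the asynchronous 2.96, 1.57 and 2.41 TPM in every library. The fitted increase was 1.69 ± 0.18 (SE, n = 2 against 3, adjusted p = 4.1e-07 by limma) at 40 min and 2.11 ± 0.18 (adjusted p = 1.2e-09, limma) at 60 min, which placed Myc 39th and 82nd from the top of 9911 genes. At 20 min the change of 0.32 did not pass, nor did that of any other gene of the table (0 of 9911 by limma, with 244 higher at an unadjusted p of 0.05 and none of the network among them). At 30 min Myc stood at 0.59 (adjusted p = 0.157 by limma) and 30 genes, 0.303% of the table, were called higher, again without a member. When genes averaging below 1 TPM were dropped, both the spread and the adjustment were computed over the genes left. The 30-min change of Myc was then called (0.59 ± 0.15 SE, adjusted p = 0.0294, limma). Leaving out a replicate number gave 0.20 without replicate 1, 0.65 without replicate 2 (called, adjusted p = 9.5e-04, limma) and 0.89 without replicate 3.

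Mycn, the member with the most pre-mRNA of the MYC genes, rose from 2.82, 3.35 and 3.63 TPM in mitosis to 11.0 and 10.7 TPM at 40 min and 14 and 19.4 TPM at 60 min. The released libraries of 40 and 60 min did not overlap with the mitotic ones or with the asynchronous ones, at 6.35, 5.37 and 6.48 TPM. Its change was 2.07 ± 0.24 at 60 min (SE, n = 2 against 3, adjusted p = 8.4e-08 by limma). Mycl, the family member of lowest level, went from 0.174, 0.332 and 0.169 TPM to 1.48 and 1.78 TPM at 40 min and 2.13 and 2.58 TPM at 60 min. It was still at 1.06 and 1.66 TPM at 120 min, while the separate asynchronous cultures held 0.261, 0.323 and 0.233 TPM. Mycl changed by 1.41 ± 0.08 at 60 min (adjusted p = 1.0e-10, limma), and in TPM its mean at 60 min was 10.5 times the mitotic mean. The sum of the 3 MYC genes was 4.27 ± 0.594 TPM (SD, n = 3) in mitosis, 17.1 ± 0.707 TPM (n = 2) at 40 min, 25.6 ± 2.97 TPM (n = 2) at 60 min and 8.65 ± 1.23 TPM (n = 3) in asynchronous cells. Mycn made up 76.6 ± 1.15% of that sum in mitosis (SD, n = 3) and 63.5 ± 1.27% at 40 min (n = 2), with 18.1 ± 2.17% and 26.9 ± 2.90% for Myc, and the shares of the libraries of these stages did not overlap.

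**Figure D1:**
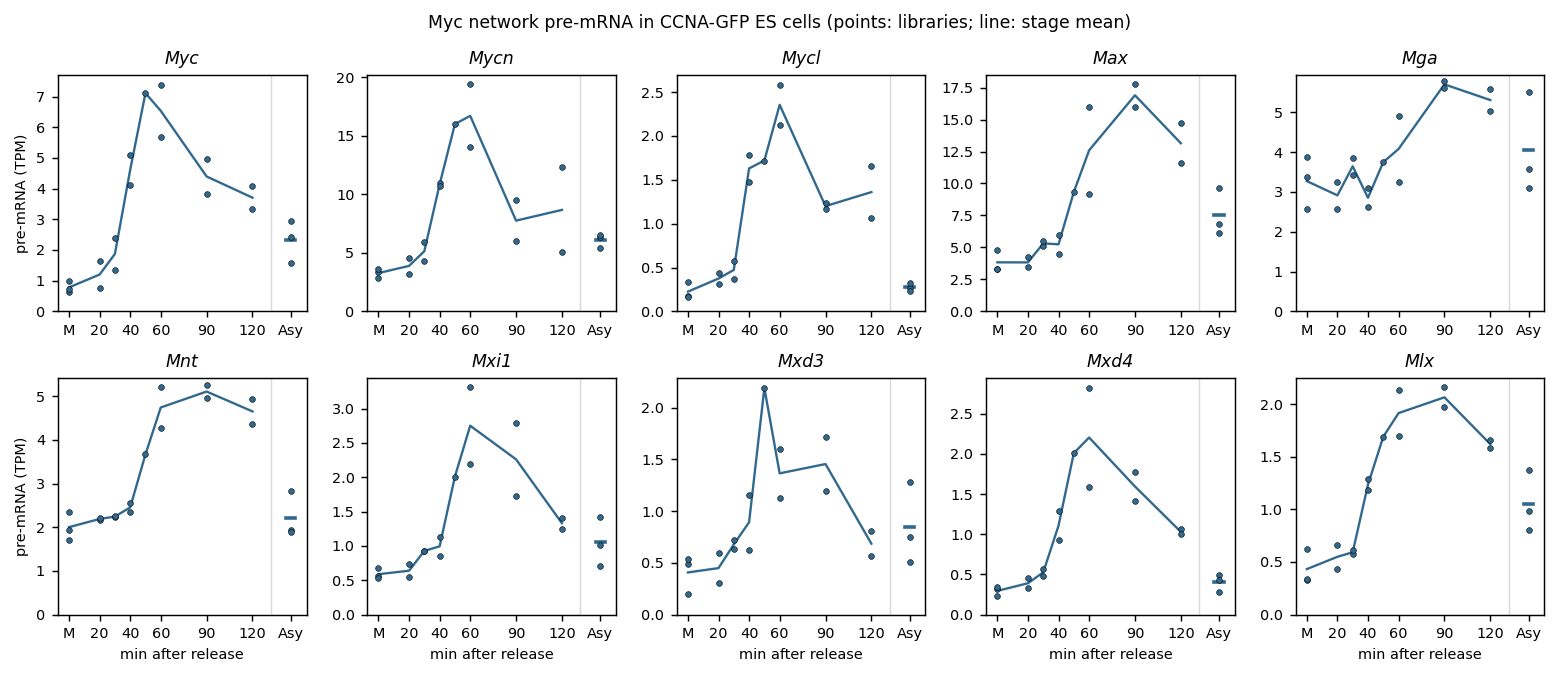
Pre-mRNA level (TPM, vertical axis) of the 10 Myc network genes in CCNA-GFP cells against minutes after release (M, mitosis; Asy, asynchronous cells), with libraries as points, stage means as a line, and the asynchronous mean as a bar. Myc, Mycn and Mycl climb between 30 and 40 min, whereas Max, Mga, Mnt and Mlx have their highest mean at 90 min.

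Max, the shared partner of all the MYC and MXD proteins, followed later. Its levels of 3.34, 3.35 and 4.81 TPM in mitosis were not far from the 6.0 and 4.49 TPM of 40 min, and the ranges overlapped. At 60 min it stood at 16.0 and 9.19 TPM, at 90 min at 16.0 and 17.8 TPM, and at 120 min at 14.7 and 11.6 TPM, all above the mitotic libraries. In replicate 1, the one sampled at both 60 and 90 min, Max was at 16.0 TPM at either time. The other library was replicate 2 at 60 min and replicate 3 at 90 min. Max was 1.59 ± 0.14 higher at 60 min (SE, n = 2 against 3, adjusted p = 3.4e-09 by limma) and 1.76 ± 0.14 higher at 90 min (adjusted p = 3.5e-09, limma). The ratio of the summed MYC genes to Max, a ratio of TPM, was 1.13 ± 0.169 (SD, n = 3) in mitosis, 3.32 ± 0.537 (n = 2) at 40 min, 0.783 ± 0.132 (n = 2) at 90 min and 1.18 ± 0.226 (n = 3) in asynchronous cells. The libraries of 40 min, at 2.94 and 3.70, were above those of mitosis, at most 1.32, and those of 90 min, at 0.690 and 0.876, were below them, the lowest mitotic one being 0.994. In CTCF-AID the ratio at 40 min was 2.57 and 3.53 without and 3.32 and 3.74 with IAA, above every mitotic library of its arm, at most 1.39 and 1.66. At 90 min it was 0.981 and 1.04 without and 0.915 and 1.10 with IAA, within the mitotic ranges, which began at 0.624 and 0.591.

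The repressive partners of MAX were spread between these courses. Mnt, a broadly expressed antagonist of MYC, measured 1.71, 2.36 and 1.94 TPM in mitosis, 2.36 and 2.55 TPM at 40 min and 5.21 and 4.28 TPM at 60 min. It passed the test at 60 min (0.97 ± 0.13, adjusted p = 6.3e-07 by limma, against 0.24 and adjusted p = 0.129 at 40 min). With each library divided by the step of its low values, Mnt was called at 40 min too (0.27, adjusted p = 0.0294, limma), as were 5818 of all genes. Mga, the PRC1.6 subunit, was the slowest, with 3.38, 2.56 and 3.88 TPM in mitosis, 3.10 and 2.61 TPM at 40 min, 4.91 and 3.25 TPM at 60 min and 5.62 and 5.79 TPM at 90 min. The ranges of mitosis and 60 min overlapped, although the fit within replicates called a rise of 0.36 ± 0.12 (SE, n = 2 against 3, adjusted p = 0.0106 by limma). That call was lost without the replicate block (0.24, adjusted p = 0.284, limma), without replicate 1 (0.31, adjusted p = 0.108) and with each library divided by the step of its low values (0.15, adjusted p = 0.230). At 90 min the libraries lay apart, with a rise of 0.54 ± 0.12 (adjusted p = 4.1e-04, limma). With every library scaled to the same total, however, Mga was called lower at 90 min (−0.45, adjusted p = 2.6e-04, limma), as were 2593 of all genes in place of 94. Among the MXD genes, Mxd4 rose by 0.73, Mxd3 by 0.54 and Mxi1 by 0.42 at 40 min and by 1.32, 0.86 and 1.32 at 60 min, with SE between 0.09 and 0.12. In TPM Mxi1 moved from at most 0.675 in mitosis to 3.31 and 2.19 at 60 min, and Mxd4 from at most 0.337 to 2.82 and 1.59. Mlx, the partner of the parallel Mondo branch, rose by 0.67 ± 0.10 at 40 min and by 1.05 ± 0.10 at 60 min, from at most 0.627 TPM in mitosis to 2.13 and 1.70 TPM.

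These directions are those of the deposited TPM, in which the whole table rose. With every library scaled to the same total the median change of all genes at 60 min was 0.02 instead of 0.79, and 3607 genes were called higher and 3302 lower in place of 8749 and 51. On that scale Myc was 1.24, Mycn 0.90 and Mycl 0.86 higher than in mitosis at 60 min, each called, whereas Mga turned to −0.72 (adjusted p = 5.9e-06 by limma) and Mnt to −0.05 (adjusted p = 0.632). Max was 0.41 higher at 60 min. At 40 min Max (−0.01) and Mxi1 (0.16, adjusted p = 0.0984, limma) lost their call on that scale and Mga was called lower (−0.52, adjusted p = 2.1e-04), while 2347 of all genes were called higher and 3100 lower in place of 4888 and 4. Without the replicate block 5 rather than 8 members were called higher at 40 min, with Max, Mxi1 and Mxd3 lost, and without replicate 1 Max and Mxi1 were lost, while of all genes 2362 and 2621 were called higher under these settings in place of 4888.

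**Figure D2:**
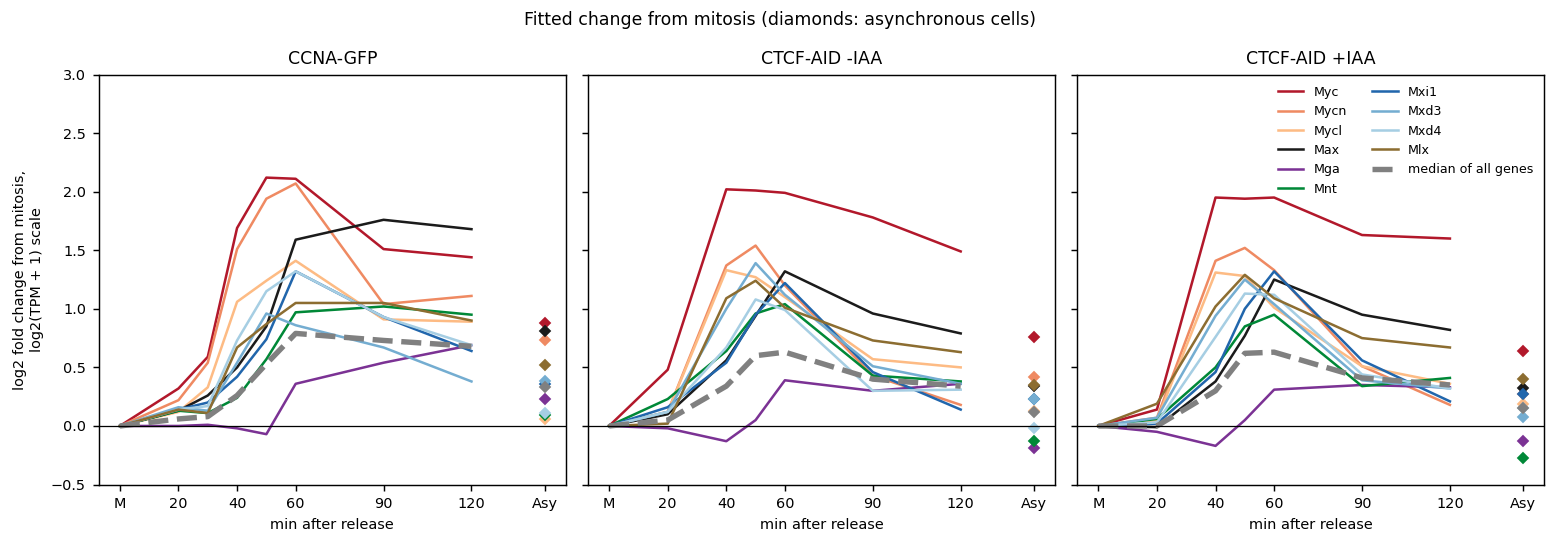
Fitted log2 fold change from mitosis on the log2(TPM + 1) scale (vertical axis) against minutes after release for each member, with a panel each for CCNA-GFP cells, −IAA CTCF-AID cells and +IAA CTCF-AID cells; the dashed grey line is the median of all genes and diamonds are asynchronous cells. Myc is the highest line at 40 min in each panel (1.69, 2.02 and 1.95), Mga the lowest, and Max keeps 1.68 at 120 min in CCNA-GFP but 0.79 and 0.82 in the CTCF-AID arms.

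After the first hour the MYC and MXD genes lost pre-mRNA in CCNA-GFP cells and the other members did not pass the test. Between 60 and 120 min 6 of the 10 genes were called lower, where 28.5% of all genes were, and none was called higher (9.60% of all genes). Mycn fell by 0.97 ± 0.25 (SE, n = 2 against 2, adjusted p = 0.00589 by limma), Myc by 0.68 ± 0.19 (adjusted p = 0.00839, limma), Mxi1 by 0.67, Mxd4 by 0.63, Mycl by 0.52 and Mxd3 by 0.49. Myc measured 3.34 and 4.07 TPM at 120 min and Mycn 5.03 and 12.3 TPM, the replicates of Mycn lying further apart than those of Myc. Max, Mnt and Mlx, at 0.10, −0.02 and −0.15, were not called, and Mga, at 0.33, had an adjusted p of 0.0550 in limma. Without replicate 1, which leaves 1 library at each time, assumed to vary like the other groups, none of the 6 was called lower, with log2 changes between −0.62 for Mycn and −0.37 for Mxd4, and of all genes 631 were called lower in place of 2824, with a median of 0.04. Without the replicate block Myc (adjusted p = 0.0695, limma) and Mxd3 (adjusted p = 0.0999) were not called, and 1195 of all genes were called lower. The median change was −0.50 over the network and −0.11 over all genes. With equal library totals 5 members were called lower, Myc being lost, and Max (0.27) and Mga (0.47) were called higher, while 2420 of all genes were called higher and 2148 lower in place of 951 and 2824.

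Asynchronous cells, a mixture of all cell cycle phases, held more Myc, Mycn, Max, Mxi1, Mxd3 and Mlx pre-mRNA than mitotic cells in CCNA-GFP (6 of 10 called higher, 70.4% of all genes), by 0.88, 0.73, 0.81, 0.36, 0.38 and 0.52. Mycl, Mga, Mnt and Mxd4 were not called there, at 0.06, 0.23, 0.09 and 0.11, and with equal library totals all 4 turned negative, at −0.08, −0.26, −0.35 and −0.05, Mga and Mnt being called lower (adjusted p = 0.00611 and 0.00505, limma). On that scale Mycn (0.25, adjusted p = 0.397) and Mxi1 (0.10, adjusted p = 0.249) were no longer called higher, and 2457 of all genes were called higher and 2016 lower in place of 6975 and 195. Without the replicate block Mxi1 (adjusted p = 0.0533, limma) and Mxd3 (adjusted p = 0.0542) were not called, and without replicate 3 Mxi1 was not, while Mga was called higher without replicate 1 (0.31, adjusted p = 0.0424) and with each library divided by its step (0.29, adjusted p = 0.0112). Of all genes 4628 were called higher without the block, 4656 without replicate 3 and 6722 without replicate 1. With a pseudocount of 0.1 Mxd4 was called higher in asynchronous cells (0.33, adjusted p = 0.0458, limma), as were 7385 of all genes. Compared with asynchronous cells the level at 60 min was higher for 9 of the 10 genes, Mga being the exception, where 67.0% of all genes were higher, with differences from 0.48 for Mxd3 to 1.35 for Mycl and a median of 0.92 over the network against 0.47 over all genes, Mycl and Mxd4 being in the table through the released libraries. The highest stage mean of Max was 2.25 times its asynchronous mean in TPM, and that of Mga 1.41 times. With equal library totals Max (0.09), Mxd3 (0.12) and Mlx (0.10) were no longer called higher at 60 min than in asynchronous cells and Mga was called lower (−0.46), while 3466 of all genes were called higher and 3486 lower in place of 6642 and 852. Mxd3 was also lost there without the replicate block (adjusted p = 0.0771, limma) and Max with division by the step (0.33, adjusted p = 0.0623), settings that called 5237 and 4111 of all genes higher.

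In CTCF-AID cells without IAA the MYC genes were again furthest above mitosis at 40 min on the log2(TPM + 1) scale, whereas by the ratio of mean TPM Mycn (3.16) lay behind Mxd3 (4.55), Mxd4 (3.64) and Mlx (3.60). At 40 min 9 of the 10 genes were called higher than in mitosis (63.3% of all genes) and at 60 min all 10 (84.8%), Mga being the gene not called at 40 min. With every library at the same total, where the median of all genes at 60 min was 0.06 instead of 0.63 and 4030 genes were called higher and 3181 lower in place of 8677 and 276, Mga was −0.41 at 60 min and Mycn, at 0.35, was not called (adjusted p = 0.186 by limma), while at 40 min Max, at 0.03, and Mnt, at 0.16, were not called and Mga was called lower, at −0.65. Without the replicate block Max at 40 min (adjusted p = 0.0809, limma) and Mga at 60 min (adjusted p = 0.125) lost their calls, with 4451 and 7450 of all genes called higher in place of 6477 and 8677. Myc went from 0.783, 0.366 and 0.440 TPM in mitosis to 1.44 and 0.633 TPM at 20 min, 5.06 and 4.59 TPM at 40 min, 5.03 and 6.03 TPM at 50 min and 4.34 and 5.06 TPM at 60 min. This was an increase of 2.02 ± 0.16 at 40 min (SE, n = 2 against 3, adjusted p = 5.0e-10 by limma). At 20 min Myc, at 0.48 with an unadjusted p under 0.05, was the one member to reach that level, and 0 genes of the table were called by limma (384 higher at that unadjusted level). Mycn changed by 1.37 ± 0.27 and Mycl by 1.33 ± 0.10 at 40 min, from 5.11, 3.78 and 2.61 TPM to 12.4 and 11.9 TPM and from at most 0.283 TPM to 1.81 and 2.36 TPM. Max, with 4.46, 3.42 and 5.10 TPM in mitosis, stood at 7.48 and 5.32 TPM at 40 min and at 12.3 and 10.5 TPM at 60 min. Mnt, which had not passed at 40 min in the other line, was called here at 0.64 ± 0.16 (adjusted p = 9.3e-04, limma), with 4.36 and 4.17 TPM against at most 2.74 TPM in mitosis, a call that was lost with equal library totals (adjusted p = 0.166). In CCNA-GFP it was called at 40 min once each library was divided by its step (0.27, adjusted p = 0.0294, limma). The lines stand in separate tables, and no test was made between them.

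Between 60 and 120 min 9 of 10 members were called lower in this line, where 53.1% of all genes were. Mxi1 fell by 1.08 ± 0.11 (SE, n = 2 against 2, adjusted p = 1.2e-07 by limma), Mycn by 1.02 ± 0.30 and Mxd3 by 0.76 ± 0.12. Max and Mnt, not called in CCNA-GFP, fell by 0.52 and 0.66, Max from 12.3 and 10.5 TPM to 8.49 and 6.82 TPM. With a pseudocount of 0.1 Myc was not called (−0.63, adjusted p = 0.0504, limma), while 5177 of all genes were called lower. Without the replicate block Myc (adjusted p = 0.0797, limma), Max (adjusted p = 0.0862) and Mlx (adjusted p = 0.0697) were not called. Nor were Mnt (−0.45, adjusted p = 0.0742, limma) and Mlx (adjusted p = 0.0573) without replicate 1, or Myc (−0.14, adjusted p = 0.646) and Mlx (−0.25, adjusted p = 0.167) without replicate 2. Of all genes 3396 were called lower without the block, 4140 without replicate 1 and 4513 without replicate 2, in place of 5431. Mga, at −0.03, was the member not called, and with equal library totals it was called higher, at 0.30, while Myc, Max and Mlx were lost and 2620 of all genes were called higher and 2717 lower in place of 748 and 5431. At 120 min Myc, at 3.83 and 2.35 TPM, was still 1.49 ± 0.16 above mitosis (adjusted p = 5.1e-08, limma), whereas Mycn, at 3.38 and 6.62 TPM, overlapped with its mitotic libraries and was not called (0.18, adjusted p = 0.552, or −0.30 with equal library totals). Mycn at 120 min was called higher without replicate 1 (0.70, adjusted p = 0.0403, limma) and stood at −0.29 without replicate 2, and the difference between Myc and Mycn was not tested. Of the summed MYC genes Mycn held 84.1 ± 3.02% in mitosis (SD, n = 3), 63.7 ± 0.849% at 40 min (n = 2) and 49.3 ± 1.84% at 90 min (n = 2). Myc held 11.7 ± 2.81%, 25.4 ± 1.34% and 44.0 ± 3.46% at the same stages. At 120 min the 2 replicates differed widely, with 24.0% and 48.7% for Myc.

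**Figure D3:**
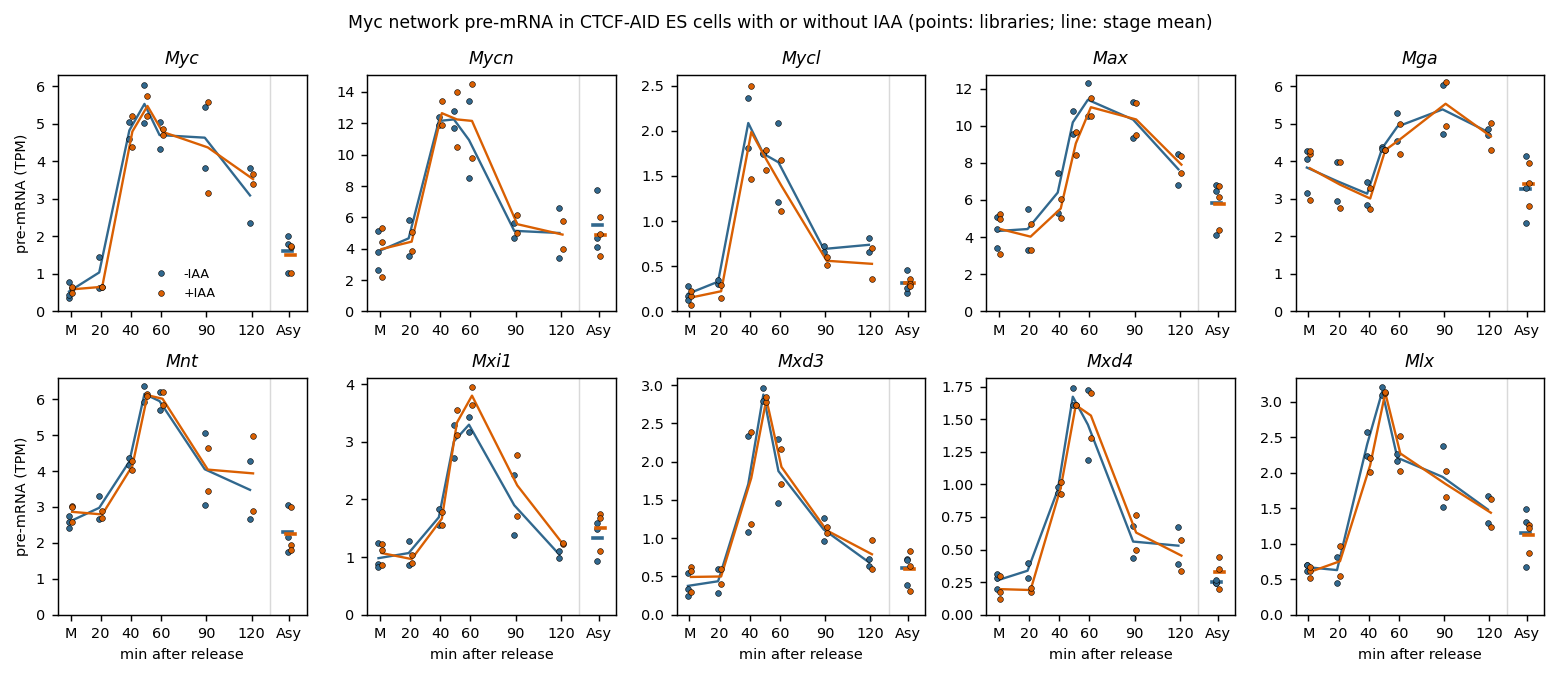
Pre-mRNA level (TPM, vertical axis) of the 10 genes in CTCF-AID cells against minutes after release, without IAA in blue and with IAA in orange (points, libraries; line, stage mean; bars at Asy, asynchronous mean). In both arms 9 of 10 genes have their highest mean between 40 and 60 min and Mga at 90 min. Without IAA, 2.49%, 49.7% and 18.5% of all genes have their highest released mean at 40, 50 and 60 min, and 20.2% at 90 min. With IAA these shares are 1.57%, 53.2%, 15.8% and 19.5%. Mycl and Mxd4 are in the table through their released libraries.

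The +IAA arm addressed whether CTCF is needed for this reactivation. Here 9 of 10 genes were called higher than mitosis at 40 min (58.7% of all genes), 10 of 10 at 60 min (82.2%), and 8 of 10 were called lower between 60 and 120 min (50.8%). At 40 min Myc was 1.95, Mycn 1.41, Mycl 1.31 and Max 0.38 higher, from 0.617, 0.490 and 0.653 TPM of Myc in mitosis to 5.22 and 4.37 TPM. With equal library totals Max (−0.13), Mnt (0.04) and Mxi1 (0.13) were not called at 40 min, nor Mycn (0.47) and Mnt (0.16) at 60 min, and Mga was called lower at both times (−0.66 and −0.49). On that scale 4162 of all genes were called higher and 3399 lower at 60 min in place of 8419 and 414. Between 60 and 120 min 5 instead of 8 members were called lower on it and Mga was called higher (0.34, adjusted p = 2.3e-05, limma), with 2727 of all genes higher and 2786 lower in place of 779 and 5196. With the replicate block left out, Max, Mnt and Mxi1 lost their call at 40 min, Mga that at 60 min and Max that between 60 and 120 min. Max at 40 min (0.24) and Mga at 60 min (0.26) were also lost without replicate 2, and Mnt (−0.27) and Mlx (−0.43) between 60 and 120 min without replicate 1. Without the block 4092 of all genes were called higher at 40 min and 7208 at 60 min, in place of 6008 and 8419, and 3387 lower between 60 and 120 min. Without replicate 2 the first counts were 5179 and 7793, and without replicate 1 the last was 3418. Between 60 and 120 min Mycn fell by 1.15 ± 0.30 and Mxi1 by 1.11 ± 0.11, whereas Myc, at −0.35, was not called (adjusted p = 0.0858 by limma). At 120 min Myc, at 3.65 and 3.40 TPM, was 1.60 above mitosis and Mycn, at 4.01 and 5.79 TPM, 0.18 above it and not called, turning to −0.32 with equal library totals.

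Direct comparison of the arms at the same stage by limma called none of the 10 genes at any of the 8 stages. Calls needed adjusted p under 0.1 with a log2 difference beyond 0.2 in either direction, and no member reached an unadjusted p of 0.05. The study's methods name these cut-offs for another test, DESeq2 on read counts, which was not run here. With that test the study reported genes responding to CTCF loss early after mitosis, so the limma counts do not stand for the study's own. Of all genes the limma test called 0 at mitosis, 20 and 40 min, so that the lack of member calls at these stages is not informative. It called 0.0879% higher and 0.195% lower at 50 min, 0.0586% and 0.166% at 60 min, 0.176% and 0.557% at 90 min, 0.127% and 0.459% at 120 min, and 0.313% and 0.694% in asynchronous cells. With the replicate block, which raised these counts (to 92 higher and 157 lower in asynchronous cells, from 32 and 71), the members still gave 0 calls. The largest differences were those of Myc at 20 min, with 0.657 and 0.651 TPM with IAA against 1.44 and 0.633 TPM without (−0.27, 95% interval −0.73 to 0.19), and of Mycl at 120 min, with 0.356 and 0.696 TPM against 0.662 and 0.811 TPM (−0.19, −0.51 to 0.12). The difference of Myc at 20 min lay in 1 pair of libraries, being 0.02 without replicate 1. Max was −0.17 (−0.66 to 0.32) at 40 min and 0.00 in asynchronous cells. At 60 min, close to the peak, the intervals were −0.43 to 0.48 for Myc, −0.52 to 0.81 for Mycn and −0.54 to 0.44 for Max, and with the replicate block they were −0.34 to 0.39, −0.47 to 0.76 and −0.30 to 0.19. The lack of a call does not show that the arms were equal. The IAA difference averaged over 20 to 60 min, minus that of asynchronous cells, was −0.01 (−0.44 to 0.43) for Myc, 0.18 (−0.46 to 0.82) for Mycn and −0.11 (−0.58 to 0.36) for Max, and called no member, against 0.0195% of all genes higher and 0 lower.

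**Figure D4:**
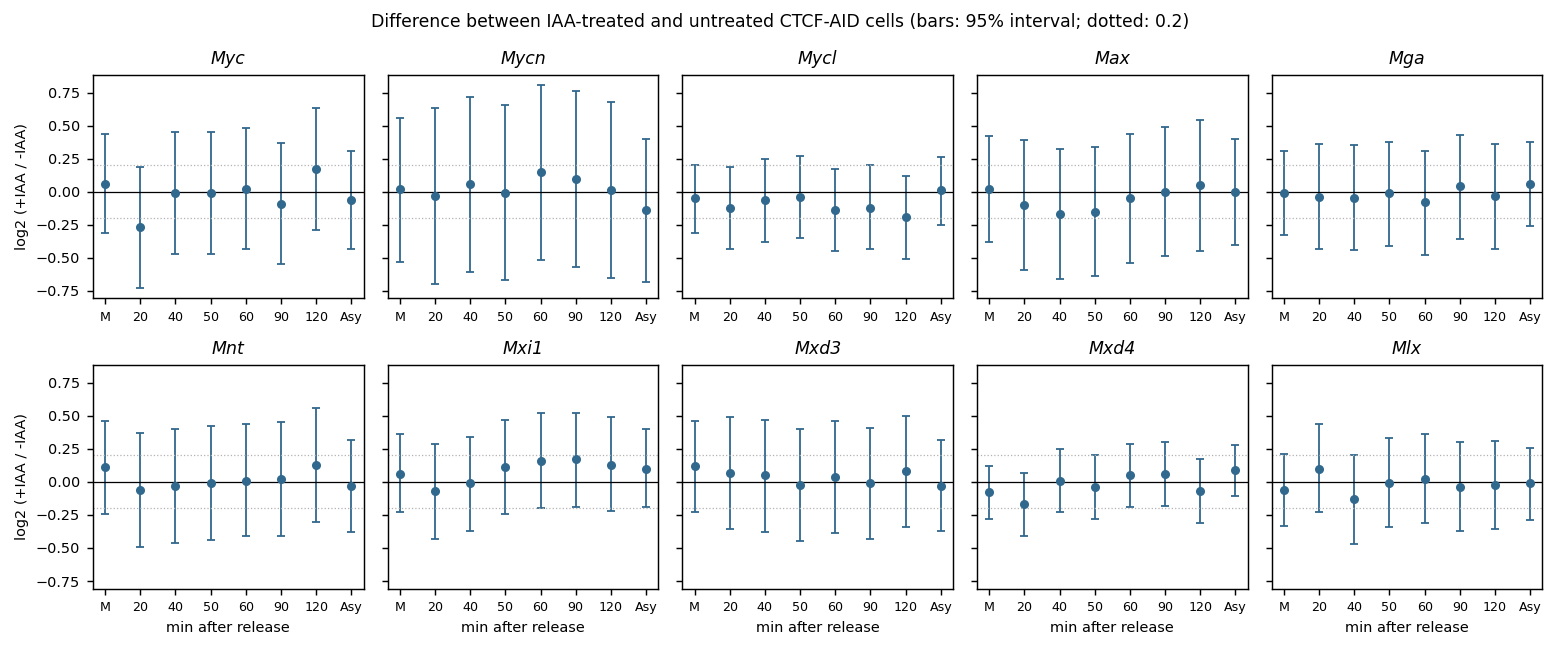
Difference between the arms, as log2 of +IAA over −IAA on the log2(TPM + 1) scale (vertical axis), at each stage for each member; points are fitted values, bars 95% intervals from limma, and dotted lines mark 0.2. Each interval includes 0, from the narrow ones of Mxd4 to the widest, that of Mycn.

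Pvt1, a long noncoding RNA gene of 340 kb that starts 47.6 kb downstream of Myc (chr15:62037986-62378096, plus strand), was described beside its neighbour. In CCNA-GFP it measured 3.80, 2.59 and 4.98 TPM in mitosis, 3.04 and 1.77 TPM at 60 min and 6.79 and 5.41 TPM at 120 min. From 60 to 120 min Pvt1 rose by 1.08 ± 0.13 (SE, n = 2 against 2, adjusted p = 9.8e-06 by limma), a stage interval over which Myc fell by 0.68. In −IAA CTCF-AID cells the rise was 1.44 ± 0.15 and in +IAA cells 1.45 ± 0.15, from 1.80 and 1.58 TPM to 5.57 and 7.13 TPM and from 1.32 and 1.50 TPM to 4.10 and 7.46 TPM. At 60 min Pvt1 was below mitosis by 0.32 without IAA (adjusted p = 0.0353, limma) and by 0.55 with IAA (adjusted p = 9.4e-04), and at −0.27 in CCNA-GFP (adjusted p = 0.0508). With equal library totals the 60-min values were −1.30 in CCNA-GFP, −1.0 without IAA and −1.23 with IAA, and the rise from 60 to 120 min was 1.15, 1.68 and 1.66. Over that interval Myc changed by −0.50 without IAA and by −0.35, not called, with IAA. With equal library totals Myc was called in none of the 3 sets, at −0.48 in CCNA-GFP, −0.17 without and −0.03 with IAA. Between the arms Pvt1 was not called at any of the 8 stages, the difference furthest from 0 being −0.27 at 90 min (95% interval −0.72 to 0.19).

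**Figure D5:**
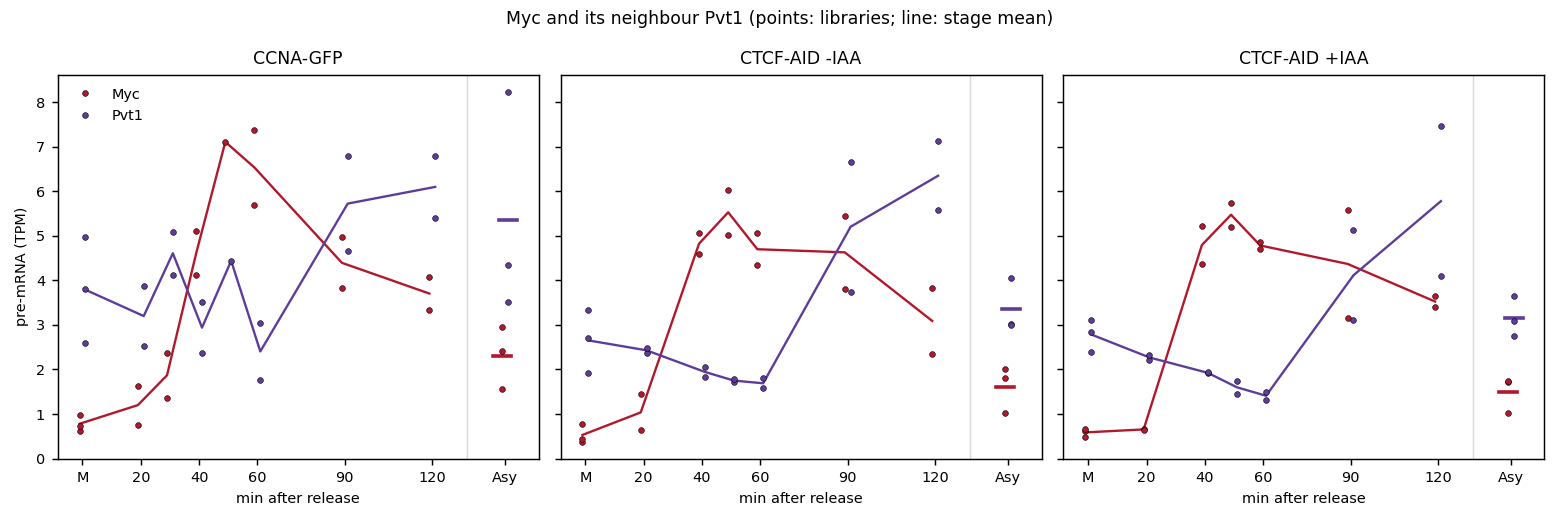
Pre-mRNA level (TPM, vertical axis) of Myc in red and of the neighbouring Pvt1 in purple against minutes after release in the 3 sets of libraries (points, libraries; line, stage mean). The stage mean of Myc is highest at 50 min, which in CCNA-GFP is a single library at 7.11 TPM, while 1 library of 60 min reaches 7.38 TPM. At 50 min Pvt1 is at 4.44 TPM in the single CCNA-GFP library and near its lowest in CTCF-AID, and at 120 min Pvt1 lies above Myc in every library.

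Genes that work with the network were counted from lists by function, 22 of 25 textbook MYC targets, 13 of 14 cofactors and 7 of 8 wider family members being in the table. Their counts stand beside 49.3% of all genes called higher at 40 min, 88.3% at 60 min and 28.5% called lower between 60 and 120 min. Of 11 subunits of the SIN3-histone deacetylase corepressor used by the MXD proteins, MXI1 and MNT, 11 were called higher at 40 min in CCNA-GFP with a median of 0.62, with Sap30 at 1.61, Sap18 at 1.37 and Arid4b, the smallest of the list over 20 to 90 min, at 0.28 (−0.11 with equal library totals), and 10 were called lower between 60 and 120 min. Over that interval 9 MYC targets, 4 genes of the wider family, 3 cofactors, 5 MGA partners and 1 turnover gene were called lower. Of the targets 1 was called higher, where 9.60% of all genes were. With equal library totals 9 targets, 4 of the wider family, 3 cofactors, 4 MGA partners, 1 turnover gene and 10 corepressor subunits were called lower over this interval. Called higher were 4 targets, 2 cofactors, 2 MGA partners and 2 turnover genes, beside 2420 higher and 2148 lower of all genes. Of 22 MYC target genes, mostly of ribosome biogenesis and metabolism, 18 were higher at 40 min with a median of 0.66 and 21 at 60 min with a median of 1.27; Eif4a1, a translation initiation helicase, changed by 1.37 and Tfrc, the transferrin receptor, by 1.20 at 40 min, and Tert, at 0.02, was not called. Of 13 MYC and MAX cofactors 6 were higher at 40 min (median 0.31) and 13 at 60 min (median 0.92), where Cdk9 and Paf1, which act on transcription elongation, were at 1.65 and 1.72 and Smarcb1 at 0.23. Of 10 genes for MYC protein turnover 4 were higher at 40 min (median 0.25) and 10 at 60 min (median 1.05), Huwe1, a ubiquitin ligase, by 0.59. Of 11 partners of MGA in its Polycomb complex 6 and 11 were higher at these times (medians 0.29 and 1.00), with Rybp at 1.58, Pcgf6 at 1.43 and E2f6 at 0.45 at 60 min. Of 7 other genes of the wider bHLHZip family 5 and 6 were higher, Mxd1, an MXD repressor, by 1.95 at 60 min and Mitf, at 0.13, not. The median of all genes at these times was 0.26 and 0.79. With equal library totals 6 corepressor subunits, 11 MYC targets, 2 cofactors, 1 turnover gene, 1 MGA partner and 4 of the wider family were called higher at 40 min, and 0, 4, 4, 5, 4 and 0 lower, beside 2347 higher and 3100 lower of all 9911 genes. On that scale, where 3607 of all genes were higher and 3302 lower at 60 min, the medians at 60 min were 0.47 for the corepressor subunits (10 higher, 0 lower), 0.18 for the MYC targets (11 higher, 4 lower), 0.06 for the cofactors (5 higher, 4 lower), 0.03 for turnover (2 higher, 3 lower), −0.03 for the MGA partners (4 higher, 4 lower) and 0.41 for the wider family (5 higher, 1 lower), and Huwe1, at −0.58, Smarcb1, at −0.72, and Mitf, at −0.37, turned negative. Tert, with equal library totals, stood at −0.36 at 40 min and −0.61 at 60 min. Between the CTCF-AID arms no gene of these lists was called at any stage.

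Over 25 stage means of the 3 sets, each centred on its own mean, the profile of Mycn was most like those of Pim1 (Pearson r 0.980), Dazap2 (0.977) and H2-DMa (0.976) among 6604 genes with at least 1 TPM on average in each table. Myc was closest to 0610009B22Rik (0.979), Zfp639 (0.977) and Pcgf1 (0.977), and Max to Rsbn1l (0.992), Lin52 (0.991) and Ppp6c (0.990). These points share libraries and the general rise after mitosis, and the values are given as a description.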

How the data were processed

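Ribo-depleted, stranded RNA-seq libraries of mitotic, released and asynchronous ES cells were available as 2 tables, 1 for each cell line. The authors used STAR and RSEM on mm10 with Gencode vM12, to which each gene's pre-mRNA had been added as an isoform, and deposited the TPM of that isoform, for which their methods name a minimum of 0.5 TPM in asynchronous or released cells. A gene expressed in mitosis alone would not be listed. Both tables were analysed separately, and no read counts were used here, so that the depth and its precision are unknown. In CCNA-GFP, low values were multiples of a step that lay between 0.0217 and 0.0381 TPM depending on the library, and dividing by it was tried as an alternative. Columns were matched to samples by name, those of asynchronous CTCF-AID cells carrying an altered prefix.

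log2(TPM + 1) was fitted with limma 3.58.1 in R 4.3.3 (trended empirical Bayes, all libraries of a line sharing the spread), with Benjamini-Hochberg adjustment over all genes of a table. For stages the model held the replicate number as a block, with calls below 0.05 (adjusted p). For the IAA arms it held none, and a call needed an adjusted p below 0.1 and a log2 difference beyond 0.2 in either direction. The labels give replicate numbers, and the methods compute fold changes within replicates. Stages with the same numbers deviated together, with a mean correlation above 0.1 in 8 of 8 stage pairs of CCNA-GFP (0.24 to 0.80) and in 40 of 40 of CTCF-AID (0.35 to 0.81). Replicates were distinct libraries (Spearman rho 0.918 to 0.984). The scripts were tested on simulated data. Alternatives were a pseudocount of 0.1, a minimum mean of 1 TPM, equal library totals, the block left out or added, and each replicate number left out.

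The 10 members and the gene lists were chosen with earlier results of these data known. All members are named, besides, from each list, the genes with the largest and the smallest change over 20 to 90 min in CCNA-GFP, Pvt1 as the neighbour of Myc, and the 3 genes closest in profile to Myc, Mycn and Max. Positions come from Gencode vM21 and promoter sequences from RefSeq.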

Additional observations from a re-analysis of the deposited data

Results flagged for a closer look

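Mga, the PRC1.6 subunit, had differences of opposite sign between mitotic and asynchronous cells in the lines. In CCNA-GFP the replicates were 0.06, 0.20 and 0.42 higher in asynchronous cells on the log2(TPM + 1) scale, and the fitted difference was 0.23. In −IAA CTCF-AID cells they were at −0.24, −0.31 and −0.03, with a fitted difference of −0.19. Neither difference was called, although that of CCNA-GFP was called higher without replicate 1 (0.31, adjusted p = 0.0424, limma) and with each library divided by the step of its low values (0.29, adjusted p = 0.0112). The difference between the lines, which stand in separate tables, was not tested. With every library scaled to the same total both were negative and called, at −0.26 (adjusted p = 0.00611, limma) and −0.36 (adjusted p = 9.4e-07).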

How the results depend on the processing

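Scaling each library to the same total of listed TPM moved most. In CCNA-GFP against mitosis it reversed, among others, Max (−0.01) and Mnt (−0.20) at 40 min, Mga (−0.72) and Mnt (−0.05) at 60 min, Mga at 90 min (−0.45), Mga (−0.25, called lower) and Mxd3 (−0.02) at 120 min and, in asynchronous cells, Mycl (−0.08), Mga (−0.26), Mnt (−0.35) and Mxd4 (−0.05). It turned Mnt to 0.13 between 60 and 120 min and Mga to −0.46 at 60 min against asynchronous cells, and it called 2 members higher between 60 and 120 min. In CTCF-AID it reversed, among others, Mga at 60 min (−0.41 without and −0.49 with IAA), at 90 min (−0.21 and −0.18) and at 120 min (−0.12 and −0.15), Mycn at 120 min (−0.30 and −0.32), Max at 40 min with IAA (−0.13) and Mga between 60 and 120 min without IAA (0.30), and 5 members fell between 60 and 120 min with IAA. Division by the library step gave 0.12 for Mga at 40 min, 0.05 for Mnt between 60 and 120 min and −0.13 for Mga at 60 min against asynchronous cells, called Mnt at 40 min (0.27) and Mga in asynchronous cells (0.29), and lost Max at 60 min against asynchronous cells (0.33). The cause was not tested. At 30 min in CCNA-GFP, 1 member was called with a pseudocount of 0.1, beside 246 of all 9911 genes. With a minimum mean of 1 TPM 1 was called as well, beside 187 of the 6808 genes left. That filter left 7 of the 10 members. Of these, 5 were called higher at 40 min and 3 lower between 60 and 120 min, beside 3882 and 1961 of the genes left.

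Without the replicate block, 5 members were called at 40 min in CCNA-GFP, Mga was lost at 60 min in all 3 sets, and between 60 and 120 min Myc and Mxd3 were lost in CCNA-GFP, Myc, Max and Mlx without IAA and Max with IAA. With the replicate block, the arms differed in 0 members at each stage. Leaving out each replicate number in turn gave 0 to 3 members called at 30 min and 0 to 6 called lower between 60 and 120 min in CCNA-GFP, where 0 to 309 of all genes were called higher and 631 to 3315 lower. It changed the sign of Mga at 40 min (−0.07 to 0.08), Mnt in asynchronous cells (−0.05 to 0.25), Max (−0.12 to 0.31) and Mnt (−0.21 to 0.17) between 60 and 120 min in CCNA-GFP, of Mycn at 120 min (−0.29 to 0.70, called without replicate 1, without and −0.03 to 0.53 with IAA), of Mga between 60 and 120 min (−0.10 to 0.04 and −0.18 to 0.22), and of the IAA difference of Myc at 20 min (−0.56 to 0.02). Of 895 alternative values of 124 single-gene results, 791 kept their direction and side of the threshold, 60 lost a call, 14 gained one and 30 reversed.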
